A study of Homo sapiens with 12 samples.

Results

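Base excision repair removes damaged bases from DNA, and 10 of its genes were followed in the transcriptome of MESH1-knockdown cells. They are UNG, NEIL3, OGG1, MUTYH, APEX1, FEN1, LIG1, XRCC1, PARP1 and PARP2, chosen by gene symbol from the 23710 symbols of the count files, and all 10 were found there. RNA-seq was performed in RCC4, an established line of human clear cell renal carcinoma, 72 hours after transfection with 40 pmol of siRNA. The 12 libraries form 2 experiments of 6. In experiment 1, 3 libraries of siMESH1-CDS were compared with 3 libraries of a non-targeting control (siNT_CDS), and in experiment 2, 3 libraries of siMESH1-7002 with 3 of their own non-targeting control (siNT_7002). MESH1, a phosphatase that hydrolyses NADPH, is the product of HDDC3. All cells, controls included, were transfected with the same lipid reagent, and within an experiment the groups differ in the siRNA. The labels call the replicates biological, and p-values measure the spread between these libraries. A single cell line, a single time point and a single siRNA per experiment limit what the groups can stand for, and the siRNA and the experiment cannot be told apart.

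Base excision repair starts with a DNA glycosylase that cuts a damaged base from its sugar. APEX1 then nicks the backbone at the abasic site, and the gap is closed either by exchange of a single nucleotide or by long-patch synthesis, in which a displaced flap is cut off by FEN1 and the nick is sealed by LIG1. PARP1 and PARP2 bind the strand breaks that arise on the way and spend NAD+ to build poly(ADP-ribose), which brings in XRCC1, the scaffold of single-strand break repair. FEN1 and LIG1 also finish Okazaki fragments, so that part of the pathway is shared with DNA replication in dividing cells.

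The promoters are shown first, because several of these genes fell together and are known to be transcribed with the cell cycle. RefSeq windows from 250 bases before to 50 after a gene's start (GRCh38.p14) were found for all 10 genes, with 2 windows for UNG, 3 for MUTYH and 1 for each of the others. They were searched on both strands for the E2F words TTTCCCGC, TTTCGCGC, TTTGCCGC and TTTGGCGC, for the cell cycle homology region (CHR) words TTTGAA and TTCGAA, and for CCAAT. None of these words contains another. An E2F word was present in LIG1 and UNG, against 3.99% of the 27305 genes with a window. Below, the capitals mark the word, and each run is given in the direction of the gene.
LIG1, E2F word, chr19:48170440-48170469, minus strand: acttcacccctTTTCCCGCcctcctcccat
UNG, E2F word, chr12:109098098-109098127, plus strand: gagggaggtttTTTGCCGCgaaaagaccac
NEIL3, CHR word, chr4:177309838-177309867, plus strand: acgcgcgcgagaTTTGAAtttcctctgcgt
PARP2, CHR word, chr14:20343620-20343649, plus strand: atgacgtcagcgTTCGAAttccatggcggc
XRCC1, CHR word, chr19:43575577-43575606, minus strand: ggcgcgccggggTTTGAAaggcccgagcct
A CHR word was held by 5 of the 10 genes (NEIL3, PARP2, XRCC1, MUTYH and UNG), against 19.5% of all genes with a window. CCAAT was present in 6 (APEX1, MUTYH, NEIL3, OGG1, UNG and XRCC1), against 39.7%. The windows of FEN1 and PARP1 held none of the words. A match is a string of letters and not a measured binding site.

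Neither siRNA has a seed site in the 3'UTR of any of the 10 genes. The target of siMESH1-7002 is shown with the letters opposite guide bases 2 to 8 in capitals.
siMESH1-7002 target in HDDC3: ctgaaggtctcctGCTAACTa
GCTAACT occurs in the 3'UTR of 4.86% of the 18442 genes with an annotated 3'UTR, and ACATTGT, the seed site of siMESH1-CDS, in 13.1%. In 3'UTRs of 64 bases (MUTYH) to 1023 bases (UNG), the 10 repair genes held neither. Sites do occur in other genes named below. Among them, TDG holds 1 of siMESH1-7002. APEX2, POLD3, PARP12, ZC3HAV1, QPRT and ERCC6 hold 1 of siMESH1-CDS, and PARP8 and PRKDC hold 2. Whether these sites act was not tested.

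Libraries of experiment 1 had 34063155 to 49134129 reads in genes and those of experiment 2 had 24787804 to 31651125. Levels are given as CPM, reads per 1000000 reads in genes after TMM scaling, and fold changes come from edgeR's quasi-likelihood test within each experiment, called at an adjusted p (Benjamini-Hochberg over all genes tested) under 0.05. HDDC3 itself was at 5, 0 and 11 reads in siMESH1-CDS against 292 to 438 in siNT_CDS, and at 35 to 52 reads in siMESH1-7002 against 326 to 442 in siNT_7002, in the direction of the labels. Its log2 fold change was -5.565 with siMESH1-CDS and -3.25 with siMESH1-7002, or -3.73 and -3.12 after GC correction (described below). The difference between the siRNAs was -2.47, or -0.51 and not called after GC correction (edgeR adjusted p = 0.321). HDDC3 overlaps UNC45A on the opposite strand. The 8 markers of the renal line that were checked (PAX8, PAX2, CA9, NDUFA4L2, EPAS1, VIM, KRT18 and KRT8) had medians of 63.6 to 4330 CPM over the 12 libraries. With siMESH1-CDS, 6 of them were called lower and 0 higher, or 2 lower and 4 higher after GC correction. With siMESH1-7002, 3 were lower and 2 higher, or 1 lower and 4 higher after GC correction. In siMESH1-CDS the means of NDUFA4L2 and KRT18 were 0.624 and 2.76 CPM, against 27.6 and 77.3 CPM in siNT_CDS. All 8 had a higher mean in siNT_7002 than in siNT_CDS, from 83.5 against 77.3 CPM for KRT18 to 1002 against 27.6 CPM for NDUFA4L2. The controls were not tested against each other. Of 6 markers of other cells, PTPRC, CD3E, PECAM1, VWF and MYH11 stayed between 0 and 0.237 CPM in every library, whereas CD68, a lysosomal protein used as a macrophage marker, was present and moved with the groups. Its mean was 54.7 CPM in siNT_CDS and 3.57 CPM in siMESH1-CDS (log2 fold change -3.94, or -2.58 after GC correction), and 105 CPM in siNT_7002 and 140 CPM in siMESH1-7002 (0.41), each called. The siMESH1-CDS libraries stood apart by base composition. Log2 ratios to the siNT mean were taken after adding 1 CPM to each level. In the decile of transcripts with the lowest GC content, the median ratio of the siMESH1-CDS libraries was 0.98, 1.33 and 0.69 in replicates 1, 2 and 3, and in the highest decile it was -2.07, -2.41 and -1.63. Reads outside genes made up 18.4% to 20.8% of these libraries and 14.7% to 15.5% of siNT_CDS. No library of experiment 2 departed by more than 0.14 from its siNT mean in either decile. Changes of the 10 genes are therefore also given with a GC correction, in which a smooth of log2 CPM on transcript GC content was fitted in each library and removed as an offset.

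Before GC correction, most of the repair genes were called lower with siMESH1 than with siNT in both experiments, but not the same number of them and not by the same amount. With siMESH1-CDS all 10 were called lower, against 37.2% of all genes tested, and with siMESH1-7002 7 were, against 26.7%. The 7 were NEIL3, MUTYH, FEN1, LIG1, XRCC1, PARP1 and PARP2, so that 7 genes were lower with each siRNA, where 15.1% of all genes tested with both were. Under the GC correction 7 genes were called lower and 0 higher with siMESH1-CDS, against 26.7% and 40.7% of all genes, and 5 were lower and 2 higher with siMESH1-7002, against 23.9% and 40.0%. The 5 called lower with each siRNA under the correction were NEIL3, FEN1, LIG1, PARP1 and PARP2, where 10.7% of all genes were. The median log2 fold change of the 10 genes was -1.96 with siMESH1-CDS, beside -0.05 for all genes, and -0.45 with siMESH1-7002, beside 0.01. After GC correction these medians were -1.54 beside 0.17, and -0.35 beside 0.08. The correction also changed the split of calls over all genes, from 4981 lower and 4945 higher to 3458 and 5266 with siMESH1-CDS, and from 3622 and 3613 to 3139 and 5249 with siMESH1-7002. A lower level in these bulk libraries cannot be divided into fewer cells that carry the transcript and less of it in each cell.

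**Figure D1:**
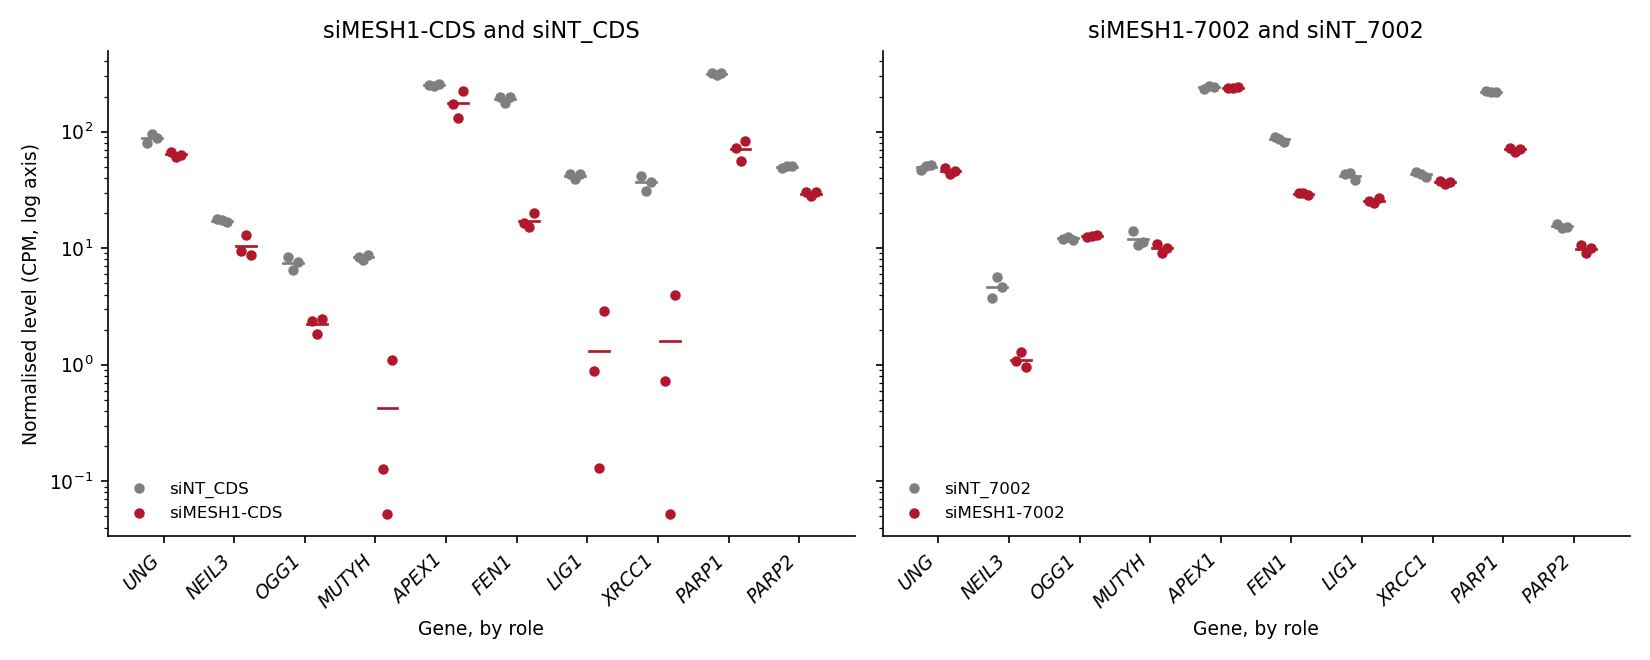
Normalised level in CPM on a log axis of the 10 repair genes in each library, with siNT in grey and siMESH1 in red, experiment 1 on the left and experiment 2 on the right. Points are libraries and short lines are means of 3 libraries. With siMESH1-CDS all 10 genes lie below their controls, and MUTYH, LIG1 and XRCC1 spread over more than a factor of 10 among the siMESH1-CDS libraries. With siMESH1-7002 the groups of UNG, OGG1, MUTYH and APEX1 overlap.

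Among the glycosylases, NEIL3 fell with both siRNAs with and without GC correction, and UNG and OGG1 were not called lower with siMESH1-7002. UNG (chr12:109097574-109110992, plus strand, GRCh38) removes uracil from DNA. It was at 79.3, 95.3 and 88.6 CPM in siNT_CDS and at 67.0, 61.0 and 63.4 CPM in siMESH1-CDS, so each knockdown library lay below each control. Its log2 fold change was -0.46 ± 0.11 (SE, edgeR adjusted p = 0.00876), and it became 0.01 under the GC correction (adjusted p = 0.965), where the call and the direction were lost. The corrected median of all genes was 0.17. In experiment 2 UNG was at 46.4, 50.3 and 51.2 CPM in siNT_7002 and 48.4, 43.6 and 45.6 CPM in siMESH1-7002. These groups overlapped, and the log2 fold change of -0.10 had a 95% interval of -0.23 to 0.02 (edgeR adjusted p = 0.161).

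NEIL3 (chr4:177309836-177362943, plus strand) removes oxidised bases, mostly from single-stranded DNA, and is found mainly in proliferating cells. In siNT_7002 it was at 3.72, 5.71 and 4.61 CPM and in siMESH1-7002 at 1.08, 1.28 and 0.957 CPM. The knockdown libraries were all below the controls, at 23.6% of the control mean, and rested on 29 to 38 reads each. The log2 fold change was -2.06 ± 0.19 (edgeR adjusted p = 1.08e-07), the largest fall among the 10 genes with siMESH1-7002, and -2.07 under the GC correction. With siMESH1-CDS it was at 9.49, 12.95 and 8.77 CPM, against 17.6, 17.4 and 16.6 CPM in siNT_CDS. No library overlapped, and the log2 fold change was -0.73 ± 0.20 (edgeR adjusted p = 0.0167). NEIL3 has the lowest transcript GC content of the 10 genes (41.4%), and the genes of its GC decile had a median log2 fold change of 0.85 with siMESH1-CDS. After GC correction its change was -1.45 ± 0.11 (adjusted p = 0.000119). Without any 1 of the siNT_CDS libraries, or without siMESH1-CDS replicate 1, the uncorrected call was lost, at edgeR adjusted p-values of 0.0516 to 0.0689.

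OGG1 and MUTYH act on the same lesion, 8-oxoguanine: OGG1 removes it opposite cytosine, and MUTYH removes an adenine placed opposite it. OGG1 (chr3:9749944-9788219, plus strand) was at 8.38, 6.55 and 7.58 CPM in siNT_CDS and at 2.37, 1.85 and 2.45 CPM in siMESH1-CDS. Its log2 fold change of -1.76 ± 0.21 (edgeR adjusted p = 0.000895) was reduced to -0.40 by the GC correction and was then not called (adjusted p = 0.162). In experiment 2 the OGG1 groups overlapped, at 12.04, 12.6 and 11.7 CPM in siNT_7002 and 12.5, 12.6 and 12.9 CPM in siMESH1-7002. The interval of its log2 fold change ran from -0.09 to 0.23 (edgeR adjusted p = 0.465), and under the GC correction it was called slightly higher (0.19, adjusted p = 0.0199), beside a corrected median of 0.08 for all genes.

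MUTYH (chr1:45329163-45340470, minus strand) showed the contrast between the experiments most plainly among the glycosylases. It was at 8.45, 7.86 and 8.81 CPM in siNT_CDS and at 0.127, 0.0520 and 1.09 CPM in siMESH1-CDS, which is 4, 2 and 38 reads against 355 to 450. The knockdown libraries were far below the controls but also far from each other, with replicate 3 the highest. The log2 fold change was -4.30 ± 0.97 (edgeR adjusted p = 0.00847), and -6.57 without siMESH1-CDS replicate 3. The GC correction brought it to -1.63 ± 0.45 (adjusted p = 0.0184). With siMESH1-7002 it was at 10.9, 9.12 and 10.0 CPM, against 13.9, 10.6 and 11.3 CPM in siNT_7002, and these groups overlapped. With 83.8% of the control mean left, it was called only narrowly, with a log2 fold change of -0.26 ± 0.11 (edgeR adjusted p = 0.0442). It was not called under the GC correction (adjusted p = 0.208) or without siNT_7002 replicate 1 (adjusted p = 0.291). MUTYH overlaps TOE1 on the opposite strand, and OGG1 overlaps CAMK1 and TADA3 on the opposite strand, so reads at these loci are attributed with some uncertainty.

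APEX1 (chr14:20455191-20457772, plus strand), the endonuclease that cuts at abasic sites, was the most abundant of the 10 per length of transcript, at 169 ± 2.23 CPM per kb in siNT_CDS and 161 ± 4.39 in siNT_7002 (SD, n = 3 each). It was at 251, 248 and 255 CPM in siNT_CDS and at 171, 130 and 223 CPM in siMESH1-CDS. The 3 knockdown libraries lay below the controls with a coefficient of variation of 26.6%, against 1.32% among the controls. The log2 fold change of -0.53 ± 0.20 was barely called (edgeR adjusted p = 0.0482), and it was -0.12 and not called after GC correction (adjusted p = 0.143). With lane as a covariate it was -0.37 and not called (adjusted p = 0.0825), and without siMESH1-CDS replicate 2 it was -0.34. It was also not called without siMESH1-CDS replicate 1 (-0.51) or without any 1 siNT_CDS library. In experiment 2 APEX1 was at 232, 245 and 240 CPM in siNT_7002 and at 237, 237 and 240 CPM in siMESH1-7002. Its log2 fold change was -0.01, with a 95% interval of -0.10 to 0.08 (edgeR adjusted p = 0.909), while the GC correction turned it to 0.09 and a call (adjusted p = 0.0170). That value is close to the corrected median of all genes, 0.08.

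The long-patch members FEN1 and LIG1 fell with each siRNA, with and without the GC correction. FEN1 (chr11:61792637-61797244, plus strand), the flap endonuclease, was at 199, 174 and 198 CPM in siNT_CDS and at 16.4, 15.1 and 20.1 CPM in siMESH1-CDS. It kept 9.02% of the control mean, with a log2 fold change of -3.47 ± 0.15 (edgeR adjusted p = 0.000178), and -2.31 ± 0.18 after GC correction (adjusted p = 0.000132). In experiment 2 FEN1 went from 90.4, 87.1 and 81.5 CPM in siNT_7002 to 29.5, 29.5 and 28.8 CPM in siMESH1-7002. Here 33.9% of the control mean was left, and the log2 fold change was -1.56 ± 0.06 (edgeR adjusted p = 9.61e-13), or -1.45 after GC correction. No library of either comparison overlapped the other group. FEN1 overlaps FADS2 on the same strand and TMEM258 on the opposite strand.

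LIG1 (chr19:48115445-48170603, minus strand), the ligase that seals the nick left by long-patch repair and joins Okazaki fragments, was at 43.0, 38.8 and 43.4 CPM in siNT_CDS and at 0.886, 0.130 and 2.91 CPM in siMESH1-CDS. In reads, these knockdown libraries held 28, 5 and 101, against 1753 to 2290 in the controls. The log2 fold change was -5.00 ± 0.98 (edgeR adjusted p = 0.00489), and it was -6.44 without siMESH1-CDS replicate 3. LIG1 also has the highest transcript GC content of the 10 (60.7%), and the GC correction brought its change to -2.33 ± 0.37 (adjusted p = 0.00209). With siMESH1-7002 it fell from 42.9, 44.1 and 38.7 CPM to 25.5, 24.5 and 26.8 CPM. The libraries were separate, at 61.1% of the control mean, with a log2 fold change of -0.71 ± 0.07 (edgeR adjusted p = 1.38e-07) and -0.58 after GC correction (adjusted p = 9.32e-10). In 1 model of all 4 groups, which shares the spread of experiment 1, the value was -0.72 and not called (adjusted p = 0.441).

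XRCC1 (chr19:43543040-43580473, minus strand), which has no catalytic activity and holds the repair proteins at a single-strand break, behaved like MUTYH. It was at 41.8, 31.1 and 37.2 CPM in siNT_CDS and at 0.727, 0.0520 and 3.97 CPM in siMESH1-CDS, or 23, 2 and 138 reads. All 3 knockdown libraries were below the controls, with replicate 2 almost without reads. The log2 fold change of -4.53 ± 1.22 (edgeR adjusted p = 0.0160) was lost as a call without siMESH1-CDS replicate 1 (-4.19, adjusted p = 0.0604). It was -3.93 without replicate 2 and -6.65 without replicate 3. After GC correction it was -2.57 ± 0.64 and called (adjusted p = 0.0127). In experiment 2 XRCC1 was at 45.1, 43.1 and 40.5 CPM in siNT_7002 and at 37.5, 35.7 and 37.1 CPM in siMESH1-7002, so the groups did not overlap but were close. The log2 fold change was -0.22 ± 0.06 (edgeR adjusted p = 0.00473) and -0.09 under the GC correction, where it was not called (adjusted p = 0.0625). XRCC1 shares its locus with PINLYP on the opposite strand over 3674 bases. On the same strand it overlaps L34079.1, a protein-coding gene matched to no symbol of the count files, over 25782 bases.

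PARP1 and PARP2 both fell with each siRNA, and PARP1 by more. PARP1 (chr1:226360691-226408079, minus strand), which makes most of the poly(ADP-ribose) of a cell after DNA damage, was at 317, 303 and 319 CPM in siNT_CDS and at 71.7, 56.0 and 83.5 CPM in siMESH1-CDS. It was at 224, 217 and 217 CPM in siNT_7002 and at 72.4, 67.1 and 71.2 CPM in siMESH1-7002. The control and knockdown libraries were far apart in each experiment, and the knockdown means came out close to each other, at 70.4 ± 13.8 and 70.2 ± 2.79 CPM (SD, n = 3 each), from control means of 313 and 220 CPM. Those levels come from separate experiments and were not tested against each other. With a transcript GC content of 49.6%, PARP1 lies where the GC trend is near 0, and the GC correction moved its log2 fold change little, from -2.15 to -1.90 ± 0.06 with siMESH1-CDS (adjusted p = 1.19e-05) and from -1.65 to -1.56 ± 0.03 with siMESH1-7002 (adjusted p = 2.17e-19).

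PARP2 (chr14:20343582-20357905, plus strand), the second of the PARPs activated by strand breaks, was at 49.0, 50.3 and 50.3 CPM in siNT_CDS and at 30.1, 27.8 and 30.2 CPM in siMESH1-CDS. It was at 16.2, 14.8 and 15.2 CPM in siNT_7002 and at 10.6, 9.05 and 10.1 CPM in siMESH1-7002. Neither comparison had overlapping libraries, and the share left was 58.9% and 64.4% of the control mean. The log2 fold changes were -0.76 ± 0.10 (edgeR adjusted p = 0.00116) and -0.64 ± 0.08 (adjusted p = 7.01e-06), and after GC correction -1.06 ± 0.08 and -0.59 ± 0.08. Its transcript is poor in GC (45.4%), in a decile whose median log2 fold change was 0.65 with siMESH1-CDS, and 12.4% of the genes in that decile were called lower.

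**Figure D2:**
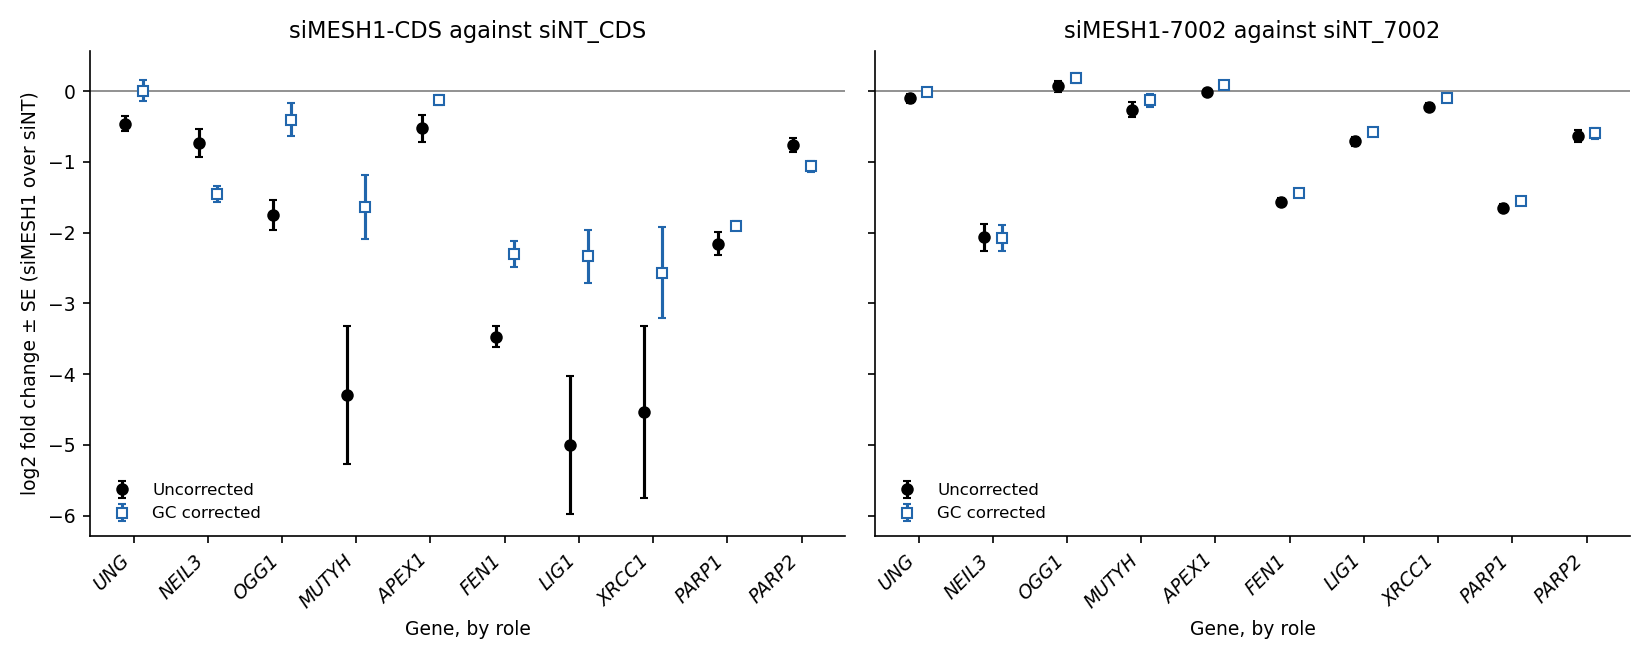
Log2 fold change of siMESH1 over siNT for the 10 repair genes, with SE from the edgeR fit, before (black circles) and after (open blue squares) correction for transcript GC content. On the left, with siMESH1-CDS, the correction moves MUTYH, LIG1 and XRCC1 from between -5.00 and -4.30 to between -2.57 and -1.63, and UNG to 0.01. On the right, with siMESH1-7002, both estimates are close, and NEIL3, PARP1 and FEN1 lie lowest.

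Groups without overlap were seen for all 10 genes with siMESH1-CDS, where 42.5% of all genes tested were lower without overlap, and for 6 with siMESH1-7002, where 29.9% were. Exact permutation of 3 against 3 libraries gave a two-sided p of 0.1 for each of these, the smallest value that this design allows. The lanes of experiment 1 did not separate the groups fully. In lane 4, siMESH1-CDS replicate 3 was lower than siNT_CDS replicate 1 for all 10 genes, with log2 ratios from -0.17 (APEX1) to -3.50 (LIG1), and in lane 6 replicate 1 was lower than siNT_CDS replicate 3 for all 10, from -0.40 (UNG) to -4.56 (LIG1). These ratios were taken after adding 1 CPM to each level, which shrinks them where levels are low.

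The largest falls with siMESH1-CDS were in the genes richest in GC. The 5 genes with the largest log2 fold changes, LIG1, XRCC1, MUTYH, FEN1 and PARP1, include the 3 with the highest GC content, at 60.7%, 58.3% and 60.6%. In the GC decile from 57.98% to 61.47%, which holds these 3 genes, the median log2 fold change of all genes was -2.55 and 81.5% of genes were called lower. Relative to the median of their own decile, the log2 fold changes were -2.70 for FEN1, -2.44 for LIG1, -2.03 for PARP1, -1.98 for XRCC1, -1.74 for MUTYH, -1.57 for NEIL3 and -1.42 for PARP2. They were smaller for OGG1 (-0.99), APEX1 (-0.40) and UNG (-0.34). In experiment 2 the median of a decile lay between -0.10 and 0.14, and the same distances were -2.14 for NEIL3, -1.63 for PARP1 and -1.53 for FEN1. PARP2 (-0.66) and LIG1 (-0.64) followed, and the other 5 genes lay between -0.19 and 0.10.

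**Figure D3:**
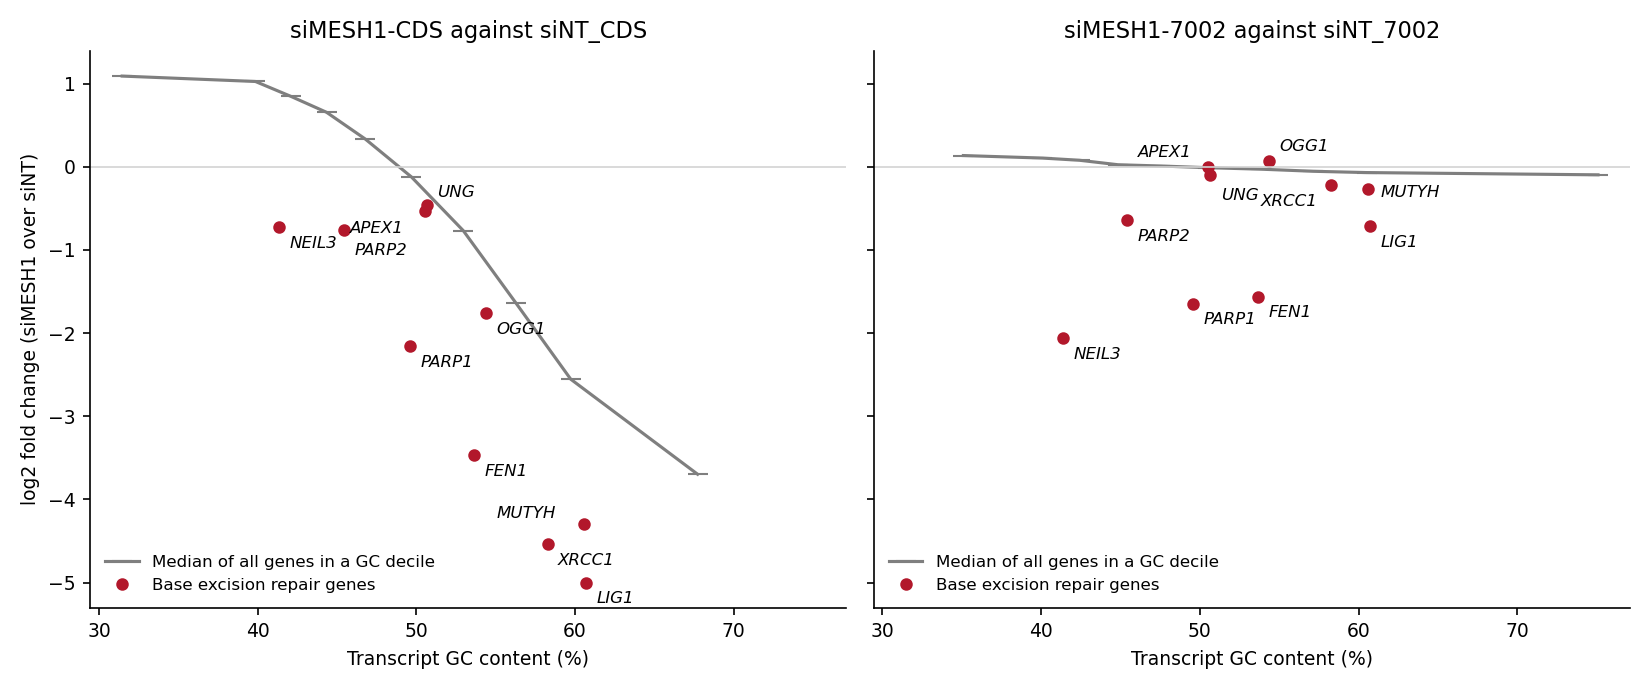
Log2 fold change of siMESH1 over siNT against transcript GC content in percent, with the 10 repair genes in red and the median of all genes in each decile of GC content as a grey line, drawn at the middle of the decile's range. With siMESH1-CDS (left) the grey line falls from 1.09 to -3.70 and all 10 genes lie under the median of their own decile. With siMESH1-7002 (right) the line stays between 0.14 and -0.10, and NEIL3, PARP1 and FEN1 stand farthest below it.

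The change differed between the siRNAs for 9 of the 10 genes in a model of all 12 libraries, where 69.7% of all genes tested differed, 39.7% towards a more negative and 30.0% towards a more positive change with siMESH1-CDS. The fall was larger with siMESH1-CDS for XRCC1 (difference of log2 fold changes -4.46, 95% interval -6.72 to -2.20), LIG1 (-4.44, -6.24 to -2.64) and MUTYH (-4.19, -5.75 to -2.63). It was also larger for FEN1 (-2.06), OGG1 (-1.98), APEX1 (-0.67), PARP1 (-0.66) and UNG (-0.51), with edgeR adjusted p-values between 3.02e-06 and 0.0178 over all 9 genes. All 12 libraries were scaled together here, so a difference need not equal that of the fold changes from the separate fits. The median difference of all genes was -0.24, or 0.06 after GC correction, and the values of UNG, APEX1 and PARP1 are to be read beside it. NEIL3 was the exception and fell by more with siMESH1-7002 (difference 1.20, 0.59 to 1.80). PARP2 was not called different (-0.28, -0.55 to -0.01, adjusted p = 0.0603), but under the GC correction it was (-0.54, adjusted p = 0.00197). The correction also ended the difference of UNG, which became 0.01, and reduced those of LIG1 to -1.62 and MUTYH to -1.36.

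Per length of transcript, the order of the 10 genes was similar in the 2 control groups but not the same. In siNT_CDS, APEX1 was followed by FEN1 (83.0 CPM per kb) and PARP1 (79.2), which overlapped, then by UNG (42.4), PARP2 (26.5), XRCC1 (13.1) and LIG1 (12.3), the last 2 overlapping, and by NEIL3 (7.15), MUTYH (4.55) and OGG1 (3.38). In siNT_7002 the order was APEX1, PARP1 (55.5 CPM per kb), FEN1 (37.6), UNG (23.8), XRCC1 (15.3), LIG1 (12.4), PARP2 (8.16), MUTYH (6.49), OGG1 (5.45) and NEIL3 (1.94), and no neighbours overlapped. The 2 genes with the lowest GC content, NEIL3 and PARP2, were thus placed higher among the 10 in siNT_CDS than in siNT_7002. These control groups were sequenced in separate experiments and no test was made between them.

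For each of the 10 genes the gene with the closest pattern was sought among 10818 genes of at least 5 CPM, by the root mean square difference of log2 CPM (1 CPM added) over the 12 libraries after centring on the siNT mean of each experiment. PARP1 was closest to HIRA, a histone chaperone (0.0737), FEN1 to APOBEC3B, a cytidine deaminase (0.1004), NEIL3 to BRCA1 (0.127), PARP2 to POLD3, a subunit of DNA polymerase delta (0.0853), and LIG1 to DDX39A, an RNA helicase (0.138). The log2 fold changes of HIRA were -2.19 with the first siRNA and -1.60 with the second. Their closeness to those of PARP1 follows from the way HIRA was chosen, from these same libraries. MUTYH was closest to SREBF1 (0.0945), XRCC1 to C12orf44 (0.0499), OGG1 to WSCD1 (0.0703), APEX1 to RNF216 (0.0355) and UNG to TRAPPC2P1 (0.0629). The number of candidates within 0.2 was 5 for LIG1, 6 for FEN1, 6 for PARP1, 11 for NEIL3, 58 for XRCC1, 125 for MUTYH, 147 for PARP2, 347 for OGG1, 544 for UNG and 546 for APEX1.

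The rest of the pathway was read from lists written by hand. Over all genes, 36.9% were called higher with siMESH1-CDS and 26.6% with siMESH1-7002, and 15.5% with each. Among 6 other glycosylases tested, 3 were lower and 1 was higher with siMESH1-CDS, and 2 were lower and 3 higher with siMESH1-7002. After GC correction the split with siMESH1-CDS was 3 lower and 3 higher, with SMUG1 turning from -0.39 to 0.95 and NEIL2 from -0.76, not called, to 0.79. NTHL1, which removes oxidised pyrimidines, was lower with each siRNA (log2 fold changes -6.85 and -0.44, the first -3.50 after GC correction), and MBD4, which removes thymine and uracil opposite guanine, was higher with each (1.00, or 0.39 after GC correction, and 0.23). MPG, with the smallest p in experiment 1, fell by 4.81 on the log2 scale with siMESH1-CDS, or by 1.43 after GC correction, and was at 0.22 with siMESH1-7002. TDG, with the smallest p in experiment 2, was at -0.94 with siMESH1-7002 (edgeR adjusted p = 3.86e-08) and at 0.31 with siMESH1-CDS, which was not called and became -0.49 under the GC correction (adjusted p = 0.000398). The 3'UTR of TDG holds 1 seed site of siMESH1-7002, and its part in the change was not tested. Of the 10 genes for other end processing, gap filling and ligation, 5 were lower and 2 higher with siMESH1-CDS, and 2 were lower and 3 higher with siMESH1-7002. APEX2, a relative of APEX1, was lower with each (-3.16 and -0.35). POLB, the polymerase that fills the single-nucleotide gap, was higher with each (1.00 and 0.29), and after GC correction the values were 0.56 and 0.32.

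Long-patch synthesis, in which FEN1 and LIG1 act, was mostly lower with each siRNA. The list holds the sliding clamp PCNA, the clamp loader and DNA polymerases delta and epsilon, and 13 of its 14 genes were lower with siMESH1-CDS and 11 with siMESH1-7002, the same counts as under the GC correction. The 10 lower with each siRNA were PCNA, POLD1, POLD2, POLD3, POLE, POLE2, RFC2, RFC3, RFC4 and RFC5. PCNA changed by -0.62 and -0.73 with siMESH1-CDS and siMESH1-7002, RFC5 by -1.65 and -0.85, and POLE by -3.03 and -1.24. After GC correction the values with siMESH1-CDS were -0.94, -1.88 and -1.18. POLD4 was at -3.13 with siMESH1-CDS, but at -0.44 and not called after GC correction (adjusted p = 0.412), and at 0.32 with siMESH1-7002. A list of 16 S phase and proliferation markers had 15 lower with siMESH1-CDS and 16 with siMESH1-7002. Their summed level was 545 to 613 CPM in siMESH1-CDS against 2374 to 2385 CPM in siNT_CDS, and 419 to 425 CPM in siMESH1-7002 against 1101 to 1142 CPM in siNT_7002. MKI67 changed by -1.91 and -2.21, MCM4 by -2.86 and -1.80, and CCNA2 was not called with siMESH1-CDS (-0.36, edgeR adjusted p = 0.103), but was after GC correction (-1.02, adjusted p = 0.000188). The part of these markers in the fall of the repair genes was not tested.

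Other members of the PARP family moved in both directions. Of 14 other PARP genes tested, 3 were lower and 8 higher with siMESH1-CDS, and 3 were lower and 6 higher with siMESH1-7002. TNKS2, a tankyrase, rose with each siRNA (1.56 and 0.34), as did PARP8 (1.08 and 0.27), PARP11 (1.64 and 0.54) and ZC3HAV1, an antiviral protein also known as PARP13 (0.84 and 0.24), and after GC correction TNKS2, PARP11 and ZC3HAV1 were at 0.93, 0.81 and 0.39 with siMESH1-CDS, although PARP8 was not called with siMESH1-CDS after GC correction (0.22, adjusted p = 0.0549). PARP4 had the smallest p in experiment 2 and was at 0.33 there, while in experiment 1 it was at 0.04, not called, and at -0.35 after GC correction (adjusted p = 0.0218). PARP12 alone was lower with each (-0.96 and -0.28), and under the GC correction its change with siMESH1-CDS was 0.46 and not called. Of 7 genes that remove ADP-ribose or work with PARP1, 1 was lower and 2 higher with siMESH1-CDS, and 2 were lower with siMESH1-7002. PARG, the main glycohydrolase of poly(ADP-ribose), was at 0.19 with siMESH1-CDS, not called, or -0.39 after GC correction (adjusted p = 0.00748), and at -0.24 with siMESH1-7002 (edgeR adjusted p = 0.0167). MACROD2 (1.74 with siMESH1-CDS, or 1.13 after GC correction) and CHD1L (-0.41 with siMESH1-7002) had the smallest p of the list in their experiments.

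The PARPs use NAD+, and of 7 genes of its synthesis tested, 3 were lower and 4 higher with siMESH1-CDS, and 2 were lower and 3 higher with siMESH1-7002. NAMPT, the rate-limiting enzyme of the salvage route from nicotinamide, was at 96.4 CPM in siNT_CDS and 355 CPM in siMESH1-CDS, and at 70.8 CPM in siNT_7002 and 101 CPM in siMESH1-7002 (means of 3 libraries). It rose with each siRNA, with log2 fold changes of 1.88 ± 0.21 (edgeR adjusted p = 0.000725) and 0.51 ± 0.07 (adjusted p = 6.72e-06), and 1.00 and 0.46 after GC correction. NMRK1, a nicotinamide riboside kinase, rose as well (1.59 and 0.26). QPRT, of the route from tryptophan, was lower with each (-3.18, or -1.20 after GC correction, and -0.16), and its change with siMESH1-7002 was not called under the GC correction. NAPRT, with the smallest p in experiment 1, was at -6.12 with siMESH1-CDS, or -2.09 after GC correction, and -0.04, not called, with siMESH1-7002, or 0.12, not called, after GC correction.

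**Figure D4:**
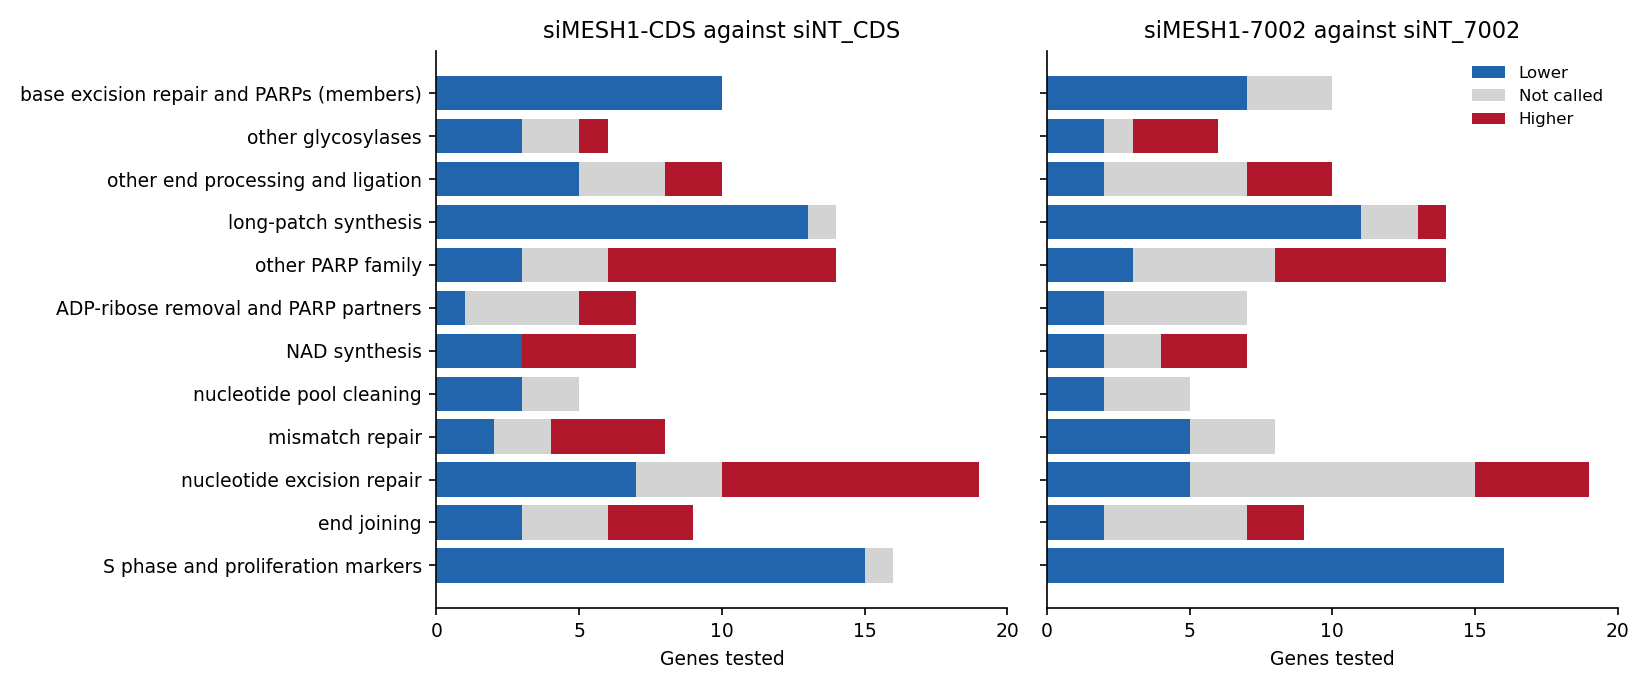
Number of genes tested in each list that were called lower (blue), not called (grey) or called higher (red) by edgeR at an adjusted p under 0.05, with siMESH1-CDS on the left and siMESH1-7002 on the right. The 10 repair genes (top bar) and the lists of long-patch synthesis and S phase markers are mostly blue, while 8 and 6 of the 14 other PARP genes are red.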

How the data were processed

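RNA was read by strand-specific, poly(A)-selected RNA-seq in single-end runs. The authors aligned reads with HISAT2 and counted them per gene with HTSeq (build hg19, versions not given in the sources used here), and deposited whole-number counts, not normalized. Rows that name no gene (38.9% to 49.3% of a library's total) were left out. Deposited tables of the authors' own DESeq2 comparisons hold mean counts, fold changes and p-values, and were not used. Each siRNA was tested against its own siNT in edgeR 4.0.16 (filterByExpr, TMM, glmQLFit, glmQLFTest, R 4.3.3). The difference between siRNAs was a contrast over all 12 libraries. Errors are SE of the fit or SD of 3 libraries, and intervals are 95%. Alternatives were DESeq2 1.42.0, voom with quality weights (limma 3.58.1), other scalings and filters, corrections for GC content (lowess span 0.3) and length, a lane covariate, a replicate block and leaving out libraries. Positions (GRCh38), GC content and 3'UTRs come from GENCODE release 29, matched by symbol (21257 by name, 1097 by an older symbol, 1356 not matched). All 10 members are named, and from each other list those that both siRNAs moved the same way past the threshold and the smallest p in each experiment. Some genes that meet this rule are not reported here. Other genes named were chosen after their values were seen. The members and lists were chosen with earlier results of these data known. Scripts were tested on simulated counts. Intervals cover the spread between libraries, and low counts limit MUTYH, LIG1 and XRCC1 with siMESH1-CDS. They also limit genes of the other lists there, among them NTHL1, MPG, NAPRT and PAXX, with siMESH1-CDS means of 0.029, 0.12, 0.018 and 0.038 CPM.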

Additional observations from a re-analysis of the deposited data

Results flagged for a closer look

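For 9 of the 10 genes the change with siMESH1-CDS differed from the change with siMESH1-7002 in a test of the difference itself, the contrast of both log2 fold changes in 1 edgeR model of 12 libraries. The differences (siMESH1-CDS minus siMESH1-7002) were -4.46 for XRCC1, -4.44 for LIG1, -4.19 for MUTYH, -2.06 for FEN1, -1.98 for OGG1, -0.67 for APEX1, -0.66 for PARP1, -0.51 for UNG and 1.20 for NEIL3. In each of these the siRNA, the experiment and the GC tilt of the siMESH1-CDS libraries move together and cannot be told apart. Under the GC correction they were -2.27 for XRCC1, -1.62 for LIG1, -1.36 for MUTYH, -0.83 for FEN1, -0.58 for OGG1, -0.22 for APEX1, -0.37 for PARP1, 0.01 for UNG and 0.57 for NEIL3. The median difference of all genes was -0.24, and 0.06 under the GC correction.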

How the results depend on the processing

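With all libraries kept, 98 of 107 values of the 10 genes with siMESH1-CDS stayed on their side of the threshold, with no called value changing sign, under the other settings, 88 of 100 did with siMESH1-7002, and 28 of 30 differences between the siRNAs did. The number of genes lower with siMESH1-CDS was 7 under the GC correction and with a filter of at least 10 reads in every library, which removes MUTYH, LIG1 and XRCC1 from the test, 8 with lane as a covariate, which ended the calls of UNG and APEX1, and 9 with voom. With siMESH1-7002 it was 6 with DESeq2, 5 under the GC correction and 4 in 1 model of all 4 groups, whose spread is shared with experiment 1 and where MUTYH, LIG1 and XRCC1 were lost. Direction turned for UNG with siMESH1-CDS under the GC correction (0.00796), for APEX1 with siMESH1-7002 under the GC correction (0.0865) and the GC and length correction (0.11), and for the difference of UNG under the GC correction (0.00678). It also turned, with no call on either side, for UNG with siMESH1-7002 under the GC and length correction (0.00468) and for APEX1 with siMESH1-7002 with no filter on low counts (0.00194) and without siNT_7002 replicate 2 (0.01). The difference of PARP2 passed the threshold under the GC correction (-0.54). Scaling by library size alone moved the median of all genes with siMESH1-CDS from -0.05 to -0.31, and the GC correction moved it to 0.17. In the model of all 4 groups it was -0.27 over the 14154 genes tested there. Over the genes of the main fit of experiment 1 the same model gave -0.21. The calls over all genes were 5611 lower and 4117 higher with library size alone, 6503 and 4915 in the model of all 4 groups, and 3458 and 5266 under the GC correction. With siMESH1-7002 the model of all 4 groups called 1444 lower and 1138 higher.

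Leaving out 1 library at a time gave 7 to 10 genes lower with siMESH1-CDS, 6 to 7 with siMESH1-7002 and 9 to 10 differences. Without siMESH1-CDS replicate 1, NEIL3, APEX1 and XRCC1 were not called, and without any 1 siNT_CDS library NEIL3 and APEX1 were not. Without siMESH1-CDS replicate 3, MUTYH was at -6.57, LIG1 at -6.44 and XRCC1 at -6.65. MUTYH with siMESH1-7002 was not called without siNT_7002 replicate 1 or siMESH1-7002 replicate 2 or 3. The difference of PARP2 ranged from -0.35 to -0.23 and was called only without siMESH1-7002 replicate 2. Among the other lists, mismatch repair genes lower with siMESH1-CDS went from 2 to 5 and those higher from 4 to 1 under the GC correction.

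Deviations from the group mean were correlated between libraries of equal replicate number at -0.05, 0.22 and 0.13 in experiment 1. In experiment 2 these correlations were -0.06, 0.04 and -0.08. Between libraries of unequal number they ran from -0.26 to 0.17 and from -0.09 to 0.14. With 3 libraries per group, these values cannot decide whether equal numbers pair the samples. With the replicate number as a block, 10 and 7 genes were lower, and MUTYH, LIG1 and XRCC1 with siMESH1-CDS were at -5.04, -5.62 and -5.57.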

Other observations

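Other repair pathways were mixed. Of 8 mismatch repair genes, 2 were lower and 4 higher with siMESH1-CDS, or 5 lower and 1 higher after GC correction, and 5 were lower with siMESH1-7002. EXO1, the exonuclease that degrades the mismatched strand, was at -2.70 and -2.53 on the log2 scale with siMESH1-CDS and siMESH1-7002 (edgeR adjusted p = 0.000214 and 3.24e-11). Of 19 nucleotide excision repair genes, 7 were lower and 9 higher with siMESH1-CDS, or 6 and 5 after GC correction, and 5 were lower and 4 higher with siMESH1-7002. ERCC2, a helicase of TFIIH (-4.13, or -1.39 after GC correction, and -0.65), and DDB1 (-3.06 and -0.35) were lower with each siRNA, and XPA (1.16, or 0.65 after GC correction, and 0.20) and ERCC6 (0.59 and 0.45) higher, with ERCC6 at 0.01 and not called after GC correction with siMESH1-CDS. CETN2 (1.83 with siMESH1-CDS, or 1.13 after GC correction) and DDB2 (0.68 with siMESH1-7002) had the smallest p of that list, and DDB2 was at -1.86 with siMESH1-CDS, but at -0.76 and not called after GC correction (adjusted p = 0.0525).

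Of 9 end joining genes, 3 were lower and 3 higher with siMESH1-CDS and 2 were lower and 2 higher with siMESH1-7002. PRKDC, the DNA-dependent protein kinase (-1.69 and -0.27), and PAXX (-6.65, or -2.90 after GC correction, and -0.55) were lower with each, and LIG4, the ligase of this pathway, was higher with each (0.77 and 0.20), but at -0.11 and not called with siMESH1-CDS after GC correction. Of 5 genes that keep damaged or wrong nucleotides out of DNA, 3 were lower with siMESH1-CDS and 2 with siMESH1-7002. NUDT1, which hydrolyses oxidised purine nucleotides, was at -4.79 and -1.11 (edgeR adjusted p = 0.00313 and 1.13e-08), and at -2.21 with siMESH1-CDS after GC correction.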
